A study of Mus musculus with 8 samples.

Results

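The genes described here are the regional homeobox genes outside striatal fate: the Lhx, Lmx1, Nkx, Otx, Emx, Irx, Gbx, En, Hox and Pou families and the sine oculis relatives Six2, Six4, Six5 and Six6, without Lhx6, Lhx8, Nkx2-1 and Six3, which have known roles in the striatum or in the neighbouring ganglionic eminence. Members were all probe sets with a single gene symbol of these families in the array's annotation, 132 of 45037 probe sets, for 89 of 18193 gene symbols. Of those symbols 7 belong to antisense or other non-coding partners of the homeobox genes, such as Six3os1. Another, Pou2af1, is a coactivator rather than a homeobox gene and is counted with the Pou family by its symbol. The rule goes by symbol alone, though it was drawn up with earlier results of these data known.

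The samples were punches of striatum, 500 µm across, taken from coronal slices of 300 µm on postnatal day 0 from BALB/c mice. Of the mice, 4 were Ctip2 null mutants (Ctip2-/-), 1 was a Ctip2 heterozygote and 3 were wild type, with 1 mouse per Affymetrix array. Ctip2, now Bcl11b, is a DNA-binding zinc finger protein that striatal projection neurons need to mature, and the comparison asks which genes differ when it is missing. The sources used here do not say how the null allele was made or whether mice were littermates. Values are log2 expression values after RMA, which corrects background, normalizes between arrays and summarises each probe set, and a difference of 1 is a 2-fold difference.

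Homeobox genes encode transcription factors that bind DNA through a homeodomain, and many of them give regions of the embryo their identity. Hox genes, arranged in the clusters A to D, pattern the hindbrain, spinal cord and trunk and are silent in the normal forebrain, where Polycomb complexes keep them repressed. Emx and Otx genes pattern the forebrain and midbrain, En and Gbx genes the midbrain-hindbrain border, Lhx, Lmx1, Nkx and Irx genes particular neuron groups and organs, and POU genes carry a second DNA-binding domain beside the homeodomain.

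Bcl11b, the targeted gene, was lower in null striatum on all 4 of its probe sets. Of its 4 probe sets, the one with the smallest p had 10.03, 10.15, 10.02 and 9.83 in the null arrays, 11.33 in the heterozygote and 11.41, 11.32 and 11.49 in wild type, a difference of -1.40 (limma adjusted p = 0.0011). All null values lay below all wild type values, and signal remained in each null mouse. The heterozygote differed from the wild type mean by -0.08 to 0.34 over the 4 probe sets, so that Bcl11b did not set it apart from wild type. Of 15 striatal projection neuron markers 14 were measured, and 13 of these were above the guide to detection described below in both groups. The SD of all log2 values of an array was 1.90 to 2.05 for null, 2.06 for the heterozygote and 1.84 to 1.97 for wild type.

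Among the regional homeobox genes, Pou3f4 alone was called higher in null striatum, on 1 of its 2 probe sets, and none was called lower. One of 132 member probe sets was called higher (0.758%), against 1.87% of all probe sets, and 0 were called lower, against 0.453% (limma, Benjamini-Hochberg over all probe sets, adjusted p under 0.05). At an unadjusted p under 0.05, 4 members were higher (3.03%), against 10.9% of all probe sets, and 22 lower (16.7%), against 8.74%. By the SAM score, a difference divided by its error plus a constant, 2 members exceeded 2 (1.52%), against 6.39% of all probe sets, and 9 were below -2 (6.82%), against 3.64%. In a bulk sample, a change in the number of cells of a type and a change in RNA per cell cannot be told apart.

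Pou3f4, also known as Brn4, is an X-linked class III POU factor of the neural tube and the inner ear, and mutations of the human gene cause deafness. The called probe set had 8.43, 8.41, 8.36 and 7.97 in null striatum, 7.77 in the heterozygote and 7.35, 6.90 and 7.17 in wild type. Every null array lay above every wild type array, with null 4 the lowest of its group and the heterozygote between the groups. The means were 8.29 ± 0.22 (SD, n = 4) in null and 7.14 ± 0.23 (SD, n = 3) in wild type striatum, a 2.22-fold rise with a log2 difference of 1.15 (95% interval 0.79 to 1.51, limma adjusted p = 0.0083).

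The other probe set of Pou3f4 differed in the same direction and did not pass. It had 8.91, 8.76, 7.46 and 8.47 in null striatum, 7.71 in the heterozygote and 7.44, 7.11 and 7.88 in wild type. Null 3 lay inside the wild type range, while the remaining null arrays were above it. The difference was 0.93 (95% interval 0.20 to 1.65, limma adjusted p = 0.176). Without null 3 this probe set passed as well, with a difference of 1.24 (adjusted p = 0.0274).

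**Figure D1:**
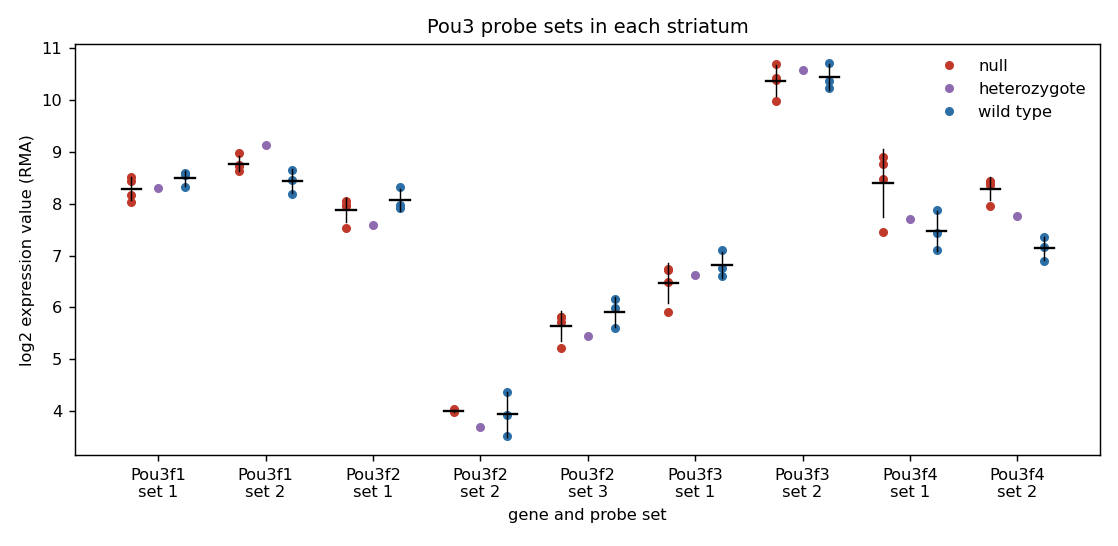
Log2 expression values (y axis) of the 9 probe sets of Pou3f1 to Pou3f4 (x axis), with a point per mouse, null left, heterozygote in the middle and wild type right, and with group means and SDs as bars. On Pou3f4 set 2, the called one, the null values of 7.97 to 8.43 lie above the wild type values of 6.90 to 7.35, and on Pou3f4 set 1 null 3 at 7.46 lies within the wild type range.

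The called probe set held its call when each array was left out in turn, with differences of 1.03 to 1.26 and adjusted p values of 0.0042 to 0.0444. Counting the heterozygote among the controls ended the call (difference 0.99, adjusted p = 0.0595). Because Pou3f4 lies on the X chromosome, the X-inactivation transcript Xist is given beside it: its probe set of widest range read 4.47, 4.46, 11.05 and 4.93 in null, 4.30 in the heterozygote and 10.20, 10.28 and 5.06 in wild type arrays. High and low Xist occurred in both groups, and with Xist as a covariate, an alternative added once the values were known, the difference of the called Pou3f4 probe set was 1.16 (adjusted p = 0.0124) and that of the other one 0.54 (adjusted p = 0.0964), against 0.93 without the covariate. Null 3, which lay inside the wild type range on that other probe set, was the null array of high Xist. With the signal spread of each array as a covariate, the called probe set differed by 0.91 (adjusted p = 0.0422). The other one then differed by 1.14 and did not pass (adjusted p = 0.379).

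The promoter sequence of Pou3f4 is shown because it is the member called, and that of Six3os1, described below, because it is the other member whose groups were separate with null above. Both are the 250 bases before the transcription start on build GRCm38.p6, credited to RefSeq, Pou3f4 at chrX:110814129-110814378 on the plus strand and Six3os1 at chr17:85618397-85618646 on the minus strand. Capitals mark CCAAT or TAAT on either strand, so that ATTGG is a CCAAT box read from the other strand.
Pou3f4: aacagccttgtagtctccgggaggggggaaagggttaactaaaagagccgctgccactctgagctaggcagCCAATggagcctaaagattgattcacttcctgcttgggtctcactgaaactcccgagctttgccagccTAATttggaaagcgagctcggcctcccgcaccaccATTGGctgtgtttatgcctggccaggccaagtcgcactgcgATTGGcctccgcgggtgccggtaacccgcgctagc
Six3os1: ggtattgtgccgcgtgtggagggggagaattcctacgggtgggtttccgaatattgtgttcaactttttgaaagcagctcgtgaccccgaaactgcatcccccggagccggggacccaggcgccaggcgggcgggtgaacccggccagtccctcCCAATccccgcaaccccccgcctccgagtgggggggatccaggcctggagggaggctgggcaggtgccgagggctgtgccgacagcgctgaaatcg
The Pou3f4 window holds 3 CCAAT boxes, starting 179, 76 and 35 bases before the start, and 1 TAAT, the core letters of many homeodomain sites, while the Six3os1 window holds 1 CCAAT box and no TAAT. Of 32851 RefSeq promoters of this length, 33.8% hold CCAAT and 54.9% hold TAAT on either strand. The octamer of POU proteins, ATGCAAAT, is in neither window and in 1.6% of all. A match describes the letters and is not a binding site.

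The other class III POU genes did not pass, and all but the brighter Pou3f3 probe set were named after their values were seen. Pou3f1, the Schwann cell myelination factor Oct6, differed by -0.20 (95% interval -0.54 to 0.13, adjusted p = 0.434) on one probe set and by 0.34 (0.01 to 0.66, adjusted p = 0.245) on the other. Pou3f2 and Pou3f3, known as Brn2 and Brn1, act together in cortical neurons. The 3 probe sets of Pou3f2 differed by -0.19 (adjusted p = 0.490), 0.07 (adjusted p = 0.837) and -0.28 (adjusted p = 0.400). Pou3f3 had 10.43, 10.70, 10.39 and 9.97 in null, 10.58 in the heterozygote and 10.72, 10.23 and 10.37 in wild type on its brighter probe set. These groups overlapped, with a difference of -0.07 (95% interval -0.49 to 0.35, adjusted p = 0.83), and the other probe set differed by -0.36 (adjusted p = 0.351).

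Pou6f1, the factor Brn5 of postmitotic neurons, averaged 9.67 ± 0.21 (SD, n = 4) in null and 9.75 ± 0.15 (SD, n = 3) in wild type striatum on its brighter probe set, a difference of -0.07 (95% interval -0.40 to 0.26). Its dimmer probe set, named after its values were seen, averaged 5.14 in null and 5.60 in wild type, with groups that did not overlap and a difference of -0.46 (95% interval -0.83 to -0.10, adjusted p = 0.180). Over all 21 Pou probe sets, 1 was called higher and 0 lower, and the median difference was -0.19. Whether Pou3f4 differed from its relatives in its change was not tested.

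**Figure D2:**
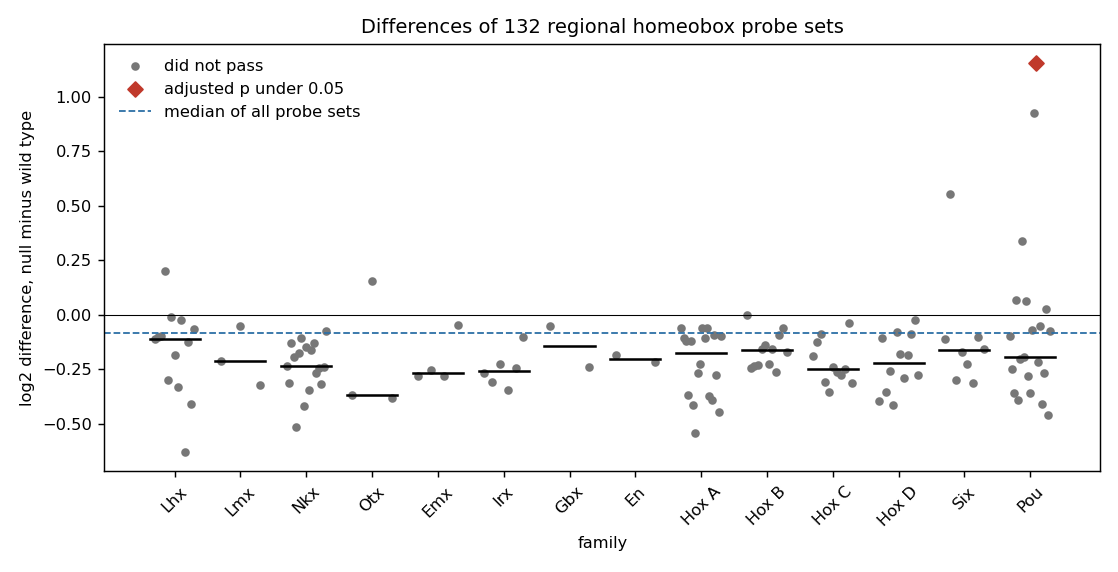
Log2 differences, null minus wild type (y axis), of the 132 probe sets by family (x axis), with family medians as black bars and the median of all probe sets, -0.08, as a dashed line. The red diamond is Pou3f4 at 1.15, the member called, and the Hox points lie between -0.54 and 0.00.

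Six3os1, the non-coding transcript that starts beside Six3 and runs the other way, was the only other member with null arrays wholly above wild type. It had 5.76, 5.48, 5.68 and 5.70 in null, 4.88 in the heterozygote and 4.88, 4.99 and 5.44 in wild type striatum. Its means, 5.66 in null and 5.10 in wild type, were both below the guide to detection described below. Wild type 3 came close to the lowest null array, and the heterozygote stood at the lowest wild type value. The difference was 0.55 (95% interval 0.20 to 0.90, limma adjusted p = 0.106), so that it did not pass. Its neighbour Six3, an eye and forebrain factor left out by the rule, rose by 1.37 on 1 of its 3 probe sets (adjusted p = 0.0016) and differed by 0.46 (adjusted p = 0.152) and -0.08 (adjusted p = 0.693) on the others. Whether the probes of these neighbouring genes read separate transcripts was not tested.

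Six2, Six4 and Six5 did not pass. Six2, a factor of kidney progenitors, differed by -0.11 (adjusted p = 0.561), Six4, which acts in muscle, by -0.32 (adjusted p = 0.241) on its probe set of largest change, and Six5 by -0.10 (adjusted p = 0.673).

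Groups that do not overlap were counted as a second view. Null lay wholly above wild type on 2 members (1.52%), against 7.70% of all probe sets, and wholly below on 21 (15.9%), against 8.85%. The 21 were spread over the Emx, Hox, Lhx, Nkx, Otx and Pou families and Six4. None of them passed the limma test, and their differences were between -0.63 and -0.07.

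**Figure D3:**
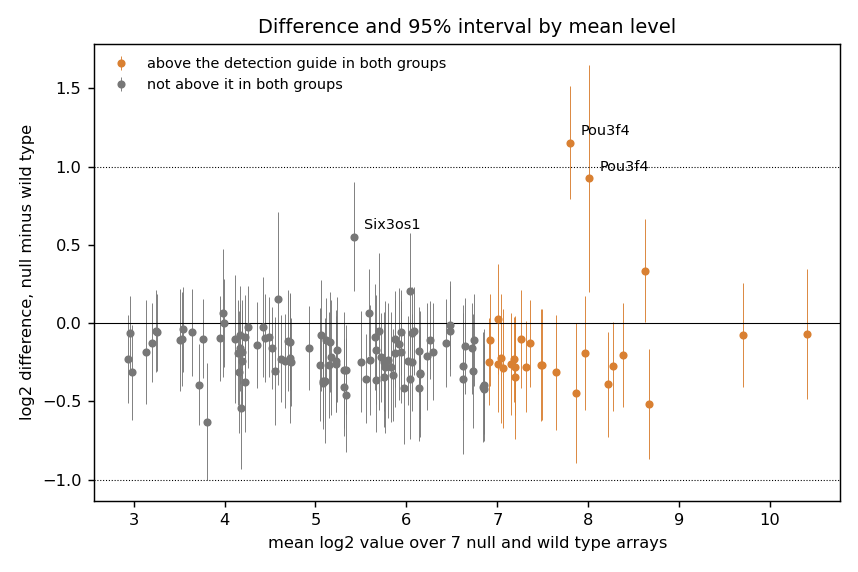
Log2 difference, null minus wild type, with its 95% interval (y axis) against the mean log2 value over the 7 null and wild type arrays (x axis) for the 132 members, coloured by whether both group means exceed the guide to detection, with dotted lines at 2-fold. Most intervals lie below or across 0 and inside the 2-fold lines, and the Pou3f4 intervals reach beyond them.

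No Hox gene was called. Of 53 Hox probe sets, for 36 symbols, 0 were called in either direction. Their differences ran from -0.54 to 0.00 with a median of -0.22, and all 53 of the 95% intervals lay within a 2-fold change either way, 35 of them within 1.5-fold. Of the 53 probe sets, 11 were above the guide to detection described below in both groups. The intervals are per probe set and not adjusted for their number, and RMA values of dim probe sets understate changes.

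The median difference was -0.17 over 18 probe sets of cluster A, -0.16 over 12 of cluster B, -0.25 over 11 of cluster C and -0.22 over 12 of cluster D. Along the clusters it was -0.20 for paralogue groups 1 to 4, which pattern the hindbrain, -0.24 for groups 5 to 8 and -0.19 for groups 9 to 13, which pattern the trunk end and limbs.

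Hoxa2, a factor of hindbrain segments and the second branchial arch, had 4.0, 3.89, 3.66 and 4.26 in null, 3.56 in the heterozygote and 4.22, 4.74 and 4.52 in wild type, with null 4 above wild type 1. Its difference of -0.54 (95% interval -0.93 to -0.15) was the largest among Hox probe sets and did not pass (adjusted p = 0.147). Hoxd1 averaged 3.55 ± 0.06 (SD, n = 4) in null and 3.94 ± 0.12 (SD, n = 3) in wild type striatum (difference -0.39, adjusted p = 0.120), the smallest p of the Hox genes. Hoxd13, a digit factor, differed by -0.41 (adjusted p = 0.188) and Hoxa9 by -0.44 (adjusted p = 0.257), and Hoxb1, named after its values were seen, by 0.00. The Hox probe sets of highest mean in clusters A to D were those of Hoxa7 and Hoxa5, Hoxb3 and Hoxb5os, Hoxc9 and Hoxc6, and Hoxd3os1 and Hoxd9, with differences of -0.39 to -0.23. The brightest averaged 8.16 (Hoxa7) and 8.05 (Hoxa5) in null, against 8.43 (Hoxa7) and 8.45 (Hoxa5) in wild type.

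Of the forebrain genes, none passed. Emx1, a gene of cortical progenitors and excitatory neurons, had 7.23, 6.92, 6.90 and 7.23 in null, 6.82 in the heterozygote and 7.26, 7.30 and 7.49 in wild type on its brighter probe set. The groups were separate by a narrow gap, with a difference of -0.28 (adjusted p = 0.287). Emx2, which sets the area map of the cortex, differed by -0.28 (adjusted p = 0.330). Lhx2, a selector gene of cortex and eye named after its values were seen, had 6.40, 6.38, 5.82 and 5.91 in null, 5.99 in the heterozygote and 5.97, 5.86 and 5.94 in wild type, so that nulls 1 and 2 alone exceeded wild type (difference 0.20, adjusted p = 0.483).

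Lhx9, expressed in the thalamus and needed for gonads, showed the lowest adjusted p after Pou3f4. Its probe set of largest difference had 3.47, 3.31, 3.41 and 3.94 in null, 3.89 in the heterozygote and 4.0, 4.30 and 4.18 in wild type. Null 4 came within 0.1 of the lowest wild type array, the groups did not overlap, and the difference was -0.63 (95% interval -1.0 to -0.25, adjusted p = 0.0909). Without null 4 it passed (-0.76, adjusted p = 0.0185), and with array spread as a covariate it was -0.35 (adjusted p = 0.409). The other 3 probe sets of Lhx9 differed by -0.41, -0.12 and -0.07. All 13 Lhx probe sets ranged from -0.63 to 0.20, with 0 called. The brightest of the 4 averaged 6.67 in null and 7.08 in wild type, and the others were dim.

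Otx2, the head organiser gene that the choroid plexus also expresses, was named after its values were seen, since they stood out in single arrays. It had 4.37, 5.40, 4.41 and 4.45 in null, 4.04 in the heterozygote and 4.75, 4.46 and 4.29 in wild type striatum. Its means, 4.66 in null and 4.50 in wild type, were below the guide to detection described below. Even the value of null 2 was below the guide of that array, 6.59. Null 2 stood far above the other null arrays and wild type 1 above the other wild type arrays, and the difference was 0.16 (adjusted p = 0.712). Those were also the arrays of highest Ttr, the transport protein that marks choroid plexus, whose brightest probe set read 7.11, 13.44, 8.27 and 11.17 in null, 7.44 in the heterozygote and 13.34, 9.38 and 11.44 in wild type. The summed linear signal of all 10 choroid plexus markers, each measured, ranged from 603.1 to 11818 in null and from 1197 to 11013 in wild type arrays, with 2 of the 10 above the guide to detection in both groups. Ttr is 1 of the 10 and makes up most of the sum in null 2 and wild type 1, so the sum largely repeats Ttr there. None of the 10 was called, and without null 2 and wild type 1 the Otx2 difference was 0.033 (adjusted p = 0.905). Otx1, a cortical gene, differed by -0.37 (adjusted p = 0.284) and the antisense transcript Otx2os1 by -0.38 (adjusted p = 0.171).

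**Figure D4:**
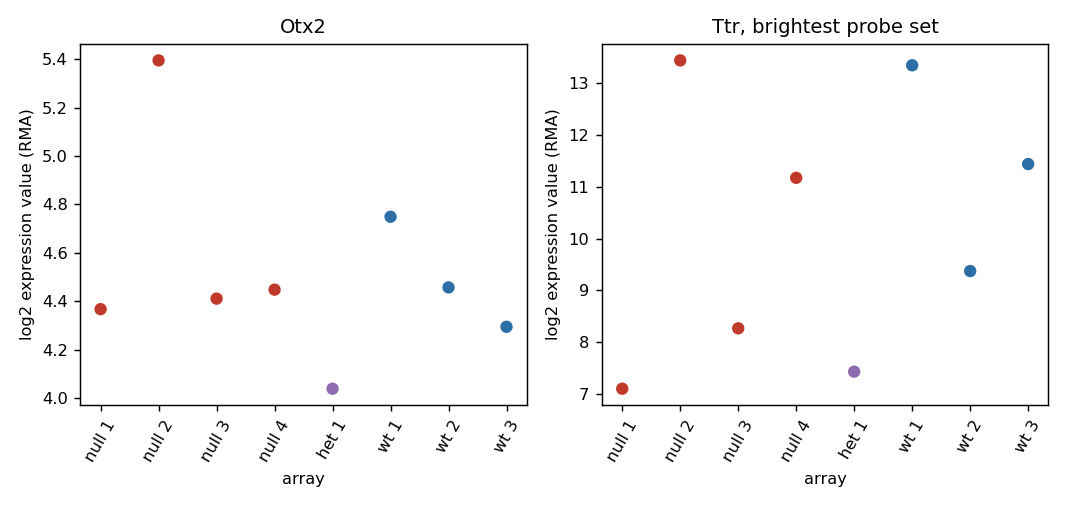
Log2 expression values (y axes, different ranges) of Otx2 and of the brightest Ttr probe set in each array (x axis), with null arrays left, the heterozygote (het) next and wild type (wt) right. Null 2 and wild type 1 are the highest of their groups on both, at 5.40 and 4.75 for Otx2 and 13.44 and 13.34 for Ttr. Both Otx2 group means lie below the guide to detection.

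Genes of the midbrain, hindbrain and ventral brain did not pass either. En1 and En2, which maintain the midbrain and cerebellum, differed by -0.18 (adjusted p = 0.470) and -0.22 (adjusted p = 0.440), Gbx2, of the anterior hindbrain and thalamus, by -0.24 (adjusted p = 0.356) and Gbx1 by -0.05 (adjusted p = 0.897). Lmx1a, a factor of midbrain dopamine neurons, differed by -0.21 (adjusted p = 0.429), and the 3 Lmx1 probe sets by -0.32 to -0.05. The 6 Irx probe sets had differences of -0.34 to -0.10, with 0 called.

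The 17 Nkx probe sets all had negative differences, of -0.52 to -0.08, and 0 were called. Nkx2-3, a gut and spleen factor, had 8.47, 8.52, 8.13 and 8.68 in null, 8.34 in the heterozygote and 8.79, 8.95 and 9.16 in wild type on its brightest probe set. The groups were separate there (-0.52, 95% interval -0.87 to -0.16, adjusted p = 0.131), whereas its other probe sets differed by -0.18 and -0.11. Nkx2-4 differed by -0.42 on its brighter probe set (adjusted p = 0.133).

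The values hold no detection calls, so a rough guide was taken as the 95th percentile of 126 probe sets for olfactory, vomeronasal and taste receptors and keratin-associated proteins, which averaged 6.72 over null and 6.95 over wild type arrays. Of the 132 members, 27 were above it in both groups, for 23 genes, and 105 were not. All 4 Pou3 genes were among the 23, as were Pou6f1 and Six5. Being above the guide does not show expression, because probe sets differ in affinity. The 31 genes with several probe sets had means that spread by up to 4.37 log2 units within a gene, and Hoxa5 read 8.05 in null and 8.45 in wild type on one probe set, but 4.19 in null and 4.28 in wild type on the other.

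The member probe sets shared a small downward displacement. Of 132, 122 had a lower mean in null striatum (92.4%, against 62.0% of all probe sets). Their median difference was -0.21, against -0.08 over all probe sets. The 126 receptor and keratin-associated probe sets were displaced too, with 111 lower in null and a median of -0.15, and null was wholly below wild type on 14 (11.1%). The heterozygote was lower still against the same wild type arrays, by a median of -0.31 over the members. With arrays centred on their median, 111 of the 132 members were lower in null, with a median of -0.15, against -0.02 over all probe sets. After quantile normalization 104 members were lower, with a median of -0.15, against -0.05 over all probe sets.

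The median of the members was 5.64, 5.57, 5.49 and 5.72 in null 1 to 4, 5.44 in the heterozygote and 5.66, 5.83 and 5.86 in wild type 1 to 3. The corresponding SDs of all log2 values were 1.96, 2.03, 2.05 and 1.90 in null 1 to 4, 2.06 in the heterozygote and 1.97, 1.84 and 1.87 in wild type 1 to 3. The arrays of widest spread, the heterozygote and null 3, held the lowest value of 50 and 41 members, and those of narrowest spread, wild type 2 and 3, the highest of 57 and 47. With the SD of each array as a covariate the median difference of the members was -0.06, with 95 of 132 below 0, and that of the receptor set was 0.01. The SD is computed from the same values and was wider in null 2 and null 3 than in any wild type array, so that array spread and genotype cannot be told apart here.

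**Figure D5:**
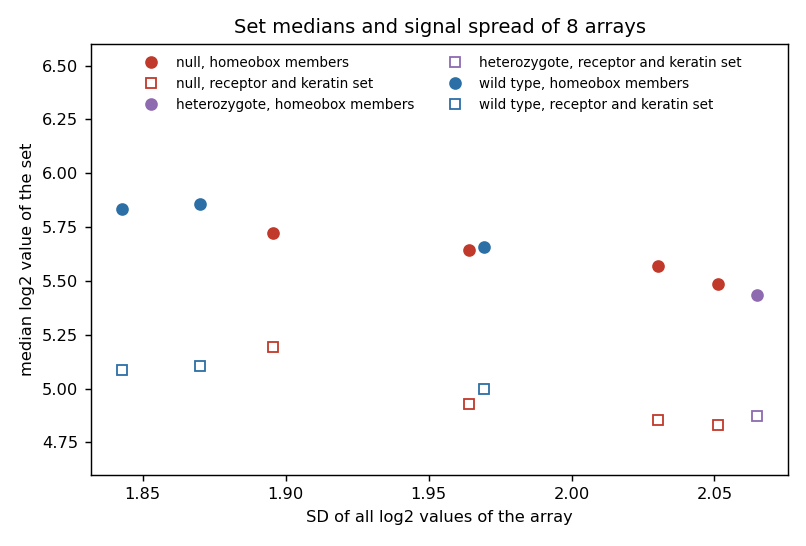
Median log2 value (y axis) of the 132 homeobox members (filled circles) and of the 126 receptor and keratin-associated probe sets (open squares) against the SD of all log2 values of each array (x axis), for 4 null, 1 heterozygote and 3 wild type arrays. Both medians are lowest in arrays of wide spread, with 5.44 for the members in the heterozygote and 5.86 in wild type 3.

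Partners of these factors were counted from lists. Counted as genes by their brightest probe set, 2.38% of all genes were higher and 0.676% lower at the same threshold, and 0 of the 89 member genes, since the brighter Pou3f4 probe set did not pass. Of 12 genes listed as LIM homeodomain partners, among them the LIM homeodomain factors Isl1 and Isl2, 2 were called higher and 0 lower. Ssbp3, which stabilises the Ldb1 complexes that LIM homeodomain proteins work in, rose 2.68-fold (adjusted p = 0.0091). It averaged 10.56 ± 0.38 (SD, n = 4) in null and 9.14 ± 0.20 (SD, n = 3) in wild type. Lmo1, a LIM-only protein, rose 2.54-fold (adjusted p = 0.0169), with a wild type mean below the guide to detection. The heterozygote read 10.30 on Ssbp3, near the null mean, and 6.62 on Lmo1, near the wild type mean of 6.63.

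Of 8 measured TALE proteins, the DNA-binding partners of Hox proteins, 2 were called higher and 0 lower. Pbx3 rose 1.78-fold (adjusted p = 0.0308) and Pknox2 1.77-fold (adjusted p = 0.0300). The heterozygote read 12.02 on Pbx3, above the null mean of 11.84. On Pknox2 it read 7.67, between means of 8.12 in null and 7.29 in wild type. The median difference was 0.11 over the LIM list, Isl1 and Isl2 included, and 0.39 over the TALE proteins. Among 19 measured genes of a Polycomb list, which also holds the histone demethylase Kdm6a, 1 was called higher and 0 lower. Rnf2, which modifies histones in Polycomb complex 1, was the gene called, 2.01-fold higher (adjusted p = 0.0360). The heterozygote read 9.95 on Rnf2, beside means of 10.20 in null and 9.19 in wild type. Of 6 cofactors of the sine oculis family and 6 Groucho corepressors 0 were called, with the largest differences in Dach2 (0.86, adjusted p = 0.137) and Tle4 (0.86, adjusted p = 0.129). Of the genes left out by the rule, Six3 and Lhx6 were called higher, Lhx6 by 1.06 on its brighter probe set (adjusted p = 0.0487), and Lhx8 (1.34, adjusted p = 0.133) and Nkx2-1 (-0.16, adjusted p = 0.454) were not.

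In the marker lists for cortex, septum, thalamus and hypothalamus, meninges and vessels, microglia and oligodendrocytes 0 of 8, 6, 10, 11, 8 and 6 measured genes were called. Their largest differences were in Eomes (-0.33, adjusted p = 0.278), Zic1 (0.38, adjusted p = 0.355), Rora (-0.52, adjusted p = 0.232), Flt1 (0.51, adjusted p = 0.228), Csf1r (0.67, adjusted p = 0.135) and Mbp (0.31, adjusted p = 0.257). Of the 8 microglia markers 7 were higher in null by their means, with a median difference of 0.43, without passing. Among 9 pallidal markers Lhx6 alone was called, and among 9 astrocyte and radial glia markers Sox2 alone, 1.61-fold higher (adjusted p = 0.0459). Of the striatal markers Ppp1r1b, Pde10a and Drd1 were called lower and Gad1 higher. The heterozygote read 11.17 on Gad1 and 9.83 on Lhx6, near the null means of 11.33 and 9.88. It read 9.11 on Sox2, between means of 9.42 in null and 8.74 in wild type. On the called Six3 probe set it read 7.80, near the wild type mean of 7.71. Over all partner and marker lists and the genes left out by the rule, 9 genes were called higher, Six3 included, against 2 when the heterozygote counted as a control and 2 with array spread as a covariate. The share of all probe sets called higher was also smaller there, at 0.244% and 0.42%, against 1.87%. Counted as genes by their brightest probe set, as the lists were, 2.38% of all genes were called higher in the fit as described.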

How the data were processed

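The deposited file holds log2 expression values per probe set, for which the authors ran RMA (a Bioconductor function) according to the series' design text, per the labels. The sources used here do not give its version or which arrays were normalized together. Values were used as deposited. Probe sets were named from the array's annotation, and 4 that list a family symbol beside another gene were left out. All 132 members matched the reference gene table (GRCm38.p6).

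Null and wild type arrays were compared with limma 3.58.1 in R 4.3.3 (lmFit, eBayes, no covariate), with Benjamini-Hochberg adjustment over 45037 probe sets. The heterozygote was not in the fit. The fit was tested on simulated data. Each array is 1 mouse, so p-values measure the spread between mice, and the number of arrays limits precision. Members and lists were chosen with earlier results of these data known.

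Genes named were Bcl11b, Ttr, every member gene with a called probe set, the 2 probe sets of largest absolute difference and the 2 of highest mean in each family (each Hox cluster taken as a family), some given as ranges, and of each list up to 4 called genes or the 1 of largest difference. Others are marked as chosen after their values were seen; the list genes Dach2, Tle4 and those left out by the rule are named in full. Replicate numbers were not used to pair the arrays. Deviations of same-numbered null and wild type arrays correlated at -0.25, -0.31 and -0.17. Arrays of different numbers were not compared in this way, so these values cannot decide whether mice were paired. Alternatives are given in the closing part. Figures used matplotlib 3.10.9.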

Additional observations from a re-analysis of the deposited data

Results flagged for a closer look

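In 4 of 51 named probe sets tested, 1 null array lay far from the other 3. There its gap to the nearest, divided by the group's range, exceeded Dixon's 95% critical value. Chance flags about 1 group in 20. That rate does not apply to Otx2, which was named for standing out in single arrays, or to Pou3f2, also named after its values were seen. Pou3f4 and Hoxd1 were chosen from these same values too, by call or size of difference. Otx2 read 5.40 in null 2, with the other null arrays at 4.37 to 4.45. Pou3f4 read 7.97 in null 4 on its called probe set, still above wild type. Hoxd1 read 3.47 in null 3, within a null range of 3.47 to 3.59 that is narrow. Pou3f2 read 5.21 in null 3 on 1 of its 3 probe sets, against a highest null value of 5.82.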

How the results depend on the processing

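One member was called higher (0.758%, against 1.87% of all probe sets) and 0 lower (against 0.453%). The higher count was 2 with array weights (1.52%, against 5.96%) and 2 with SAM scores beyond 2 (1.52%, against 6.39%). It was 0 (against 2.86%) with 1 probe set per gene, where the brighter Pou3f4 probe set stands for the gene. With the heterozygote among the controls it was also 0 (against 0.244%), and the called Pou3f4 probe set had a difference of 0.99. The lower count was 8 (6.06%, against 2.14% of all probe sets) with array weights, 9 (6.82%, against 3.64%) with SAM scores below -2, 4 (3.03%, against 0.884%) with Xist as a covariate (added once values were known) and 1 (0.758%, against 0.997%) at an adjusted p under 0.1. With single arrays left out the higher count was 2 without null 3 (1.52%, against 1.15% of all probe sets). It was 1 (0.758%) without any other array, against 0.466% to 3.85%. The lower count was 1 without null 4 (0.758%, against 0.642%) and 0 otherwise, against 0.169% to 0.984%. Across these fits the median difference of the members was -0.25 to -0.16. The members whose groups did not overlap numbered 24 to 65, with 65 without wild type 1 (49.2%, against 41.2% of all probe sets) and 54 without null 4 (40.9%, against 32.6%). In the fits as described that number was 23 (17.4%, against 16.5%), and it was 66 (50.0%, against 43.8%) without both arrays of highest Ttr, 7 (23.3%, against 21.4%) without dim probe sets, 13 (14.6%, against 18.2%) with 1 probe set per gene and 3 (2.27%, against 5.37%) with the heterozygote among the controls; fewer arrays separate more often by construction. The median difference was -0.060 with array SD as a covariate. Genes called in the partner and marker lists and among those left out by the rule numbered 9 higher and 3 lower. They numbered 2 higher and 2 lower with the heterozygote among the controls, and 2 higher and 1 lower with array SD as a covariate. Of all probe sets, 1.87% were called higher and 0.453% lower in the fit as described. These shares were 0.244% and 0.213% with the heterozygote among the controls, and 0.42% and 0.206% with array SD as a covariate. By the brightest probe set of each gene, 2.38% of all genes were called higher and 0.676% lower in the fit as described. With the replicate number as a block, 1 member was higher (0.758%, against 3.77% of all probe sets) and 1 lower (Lhx9, 0.758%, against 0.471%). The cause of these changes was not tested, apart from those that follow from fewer arrays or probe sets. No named probe set was called in the opposite direction under any alternative.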
